A study of Mus musculus with 6 samples.

Results

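The genes described here are 50 genes of DNA replication and mitosis, out of 55536 genes counted in satellite cells, the stem cells of skeletal muscle. They were listed by gene symbol, and the list was chosen with earlier results of these data known. Of these, 23 act before or during S phase, when the genome is copied, and 27 act from entry into mitosis to the separation of the daughter cells. RNA was sequenced from 6 samples, 3 control and 3 conditional knockout (cKO) for Hira, which encodes a chaperone that deposits the histone variant H3.3. Controls were Pax7CreErt2;Hira fl/+ and cKO were Pax7CreErt2;Hira fl/fl, both C57BL/6J males of 8 to 12 weeks of age, and GEO's labels give the control genotype as WT. Both groups thus carried the tamoxifen-inducible Cre driven by Pax7, a gene of satellite cells, and the controls could lose 1 Hira copy. All mice received tamoxifen in food for 2 weeks. Satellite cells were sorted as CD34+ ITGA7+ CD45- TER119- SCA1- at 5 days after muscle injury and then cultured for 48 h in high serum at low density. The study describes 3 independent RNA samples per group. Whether each came from its own mouse is not given in the sources used here, so the p-values measure the spread between these samples.

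In a dividing cell, origins of replication are licensed in G1 phase when CDC6 and CDT1 load the MCM2-7 helicase on DNA. CDC45, the GINS complex and MCM10 then activate the helicase, and polymerases with their clamp PCNA copy the strands from nucleotides made by ribonucleotide reductase and thymidylate synthase. Before mitosis, cyclins A and B with the kinase CDK1 start chromosome condensation and spindle assembly, after which the checkpoint holds anaphase until chromosomes are attached. Satellite cells are quiescent in resting muscle and enter this cycle after injury, so these genes mark cells that proliferate. Their transcription is periodic. E2F factors are known to bind the promoters of many replication genes. The DREAM complex acts on many mitotic genes through the cell cycle genes homology region (CHR), and CCAAT boxes often lie near it.

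The sequences in front of transcription start sites differed between the replication and mitosis genes, and those shown are of genes that fell in cKO. Windows from 250 bases before to 50 bases after the start were read from RefSeq (GRCm38.p6), and 42 of the 50 genes matched by symbol, with no window for Ccne2, Mcm4, Gins2, Ccna2, Cdc25c, Aurkb, Tpx2 and Kif20a. Searched on both strands were an E2F octamer (TTTCCCGC, TTTCGCGC, TTTGCCGC or TTTGGCGC), the CHR hexamer TTTGAA and CCAAT. The 150 bases before the start are given for some genes called lower that had an E2F octamer (S phase) or a CHR (mitosis) within them. Only genes with 1 window qualified, and those of lowest p in each class were taken. Mcm3, Mcm7, Bub1b, Cenpf and Kif23 were also called lower with these letters in a window, but are not shown. The letters searched are in capitals. Matches on opposite strands can overlap, as they do in the first E2F run of Mcm6.
Mcm6 (chr1:128359706-128359855, minus strand): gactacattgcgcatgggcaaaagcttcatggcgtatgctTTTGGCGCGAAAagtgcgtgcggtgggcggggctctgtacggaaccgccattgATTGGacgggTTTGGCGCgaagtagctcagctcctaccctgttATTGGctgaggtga
Mcm5 (chr8:75109359-75109508, plus strand): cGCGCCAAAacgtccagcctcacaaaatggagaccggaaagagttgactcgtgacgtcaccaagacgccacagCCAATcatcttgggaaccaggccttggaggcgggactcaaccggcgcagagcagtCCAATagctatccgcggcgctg
Kif11 (chr19:37376232-37376381, plus strand): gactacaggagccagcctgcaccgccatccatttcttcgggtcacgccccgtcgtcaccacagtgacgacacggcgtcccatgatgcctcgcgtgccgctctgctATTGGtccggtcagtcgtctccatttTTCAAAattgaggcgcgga
Top2a (chr11:99024190-99024339, minus strand): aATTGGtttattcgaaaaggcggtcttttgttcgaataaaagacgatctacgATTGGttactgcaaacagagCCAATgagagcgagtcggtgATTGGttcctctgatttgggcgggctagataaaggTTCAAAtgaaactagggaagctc
Mki67 (chr7:135716380-135716529, minus strand): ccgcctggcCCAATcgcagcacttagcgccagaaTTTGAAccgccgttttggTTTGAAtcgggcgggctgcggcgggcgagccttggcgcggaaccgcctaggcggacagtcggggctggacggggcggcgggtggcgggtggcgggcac
Kif11 and Top2a each held a CHR within 30 bases of the start, at 19 to 14 and at 23 to 18 bases before it, whereas the CHR copies of Mki67 lay at 116 to 111 and at 98 to 93 bases. Each of these 5 windows also held at least 1 CCAAT box.

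Over the whole 300-base windows, an E2F octamer was found for 7 of 20 S phase genes (35%), 1 of 22 mitosis genes (4.55%) and 2.61% of the 27018 genes with a window. The mitosis gene was Cdk1. The CHR had the opposite distribution, with 3 of 20 S phase genes (15%) and 16 of 22 mitosis genes (72.7%), against 20.2% of all genes. CCAAT was found for 13 of 20 S phase genes (65%), 19 of 22 mitosis genes (86.4%) and 41.1% of all. These matches describe the letters of the windows and are not measured binding sites.

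Each sample held between 47944477 and 63323577 counts on genes. All 50 genes of this set passed the filter on low counts, with at least 62 counts in every sample. For Fen1 and Gins2, other genes overlap most of the exon bases, so their counts are less certain. Replicates varied little, and their median coefficient of variation over the 50 genes was 2.32% in control and 2.54% in cKO. Values are given as CPM (counts of a gene per 1000000 counts of its sample) on the TMM scale, which sets the bulk of genes to the same level in all samples. The targeted gene Hira (chr16:18877037-18970309) was at 6.69, 5.54 and 5.61 CPM in the control samples and at 3.34, 4.88 and 4.86 CPM in cKO. The groups did not overlap, and Hira had a log2 fold change of -0.43 (SE 0.12, adjusted p = 0.0237 in edgeR's quasi-likelihood test). Without control replicate 1 the Hira value was -0.34 and no longer passed (adjusted p = 0.104). Counts over the whole gene include exons outside the deleted part, and 44.7% of the exon bases of Hira are shared with Gm28539 on the same strand.

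Markers of other cell types also differed between the groups; shares of cells were not measured. Myogenic markers were high in all samples, with Myod1 at a mean of 780 CPM in control and 699 CPM in cKO, and 7 of 9 tested satellite cell and myoblast markers fell while Cd34 rose. Of 12 genes of differentiated myocytes, 8 fell. Of 15 macrophage markers, 14 rose, and their summed level was 153 to 159 CPM in control and 317 to 367 CPM in cKO, although the sort gate removes CD45+ cells. Ptprc, which encodes CD45, was at a mean of 1.44 CPM in control and 2.80 CPM in cKO. Higher levels were called for 4 of 8 endothelial and 4 of 7 tested fibroblast markers, whose sums ranged over 19.7 to 21.3 and 532 to 558 CPM in control against 29.3 to 34.1 and 779 to 862 CPM in cKO. No marker of these lists was at 0 in all samples. The part of these differences in the levels of the replication and mitosis genes was not tested. In bulk RNA, fewer cycling cells and less RNA of these genes per cycling cell cannot be told apart.

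Replication and mitosis genes were slightly lower in cKO. Of the 50, 16 fell (32%) and 0 rose at the 0.05 level of adjusted p (edgeR over 22404 genes), where 6.46% of all genes tested were called lower and 9.38% higher. Among genes with a control mean of at least 5 CPM, as 49 of the 50 had, 10.6% were called lower. None of the 50 genes was called higher in DESeq2 or under any other alternative tried, and 2 genes (Slbp and Fen1) were higher at an unadjusted p of 0.05 in edgeR and 0 in DESeq2. The decreases were small: the median log2 fold change of the 50 genes was -0.088 (a change of -5.93%), beside -0.0011 over all genes tested. The fitted change was below 0 for 44 of the 50 genes, or for 39 with scaling by total counts alone, which moves the median of all genes from -0.0011 to 0.023. For 28 of the 50 (56.0%) the highest cKO value was under the lowest control value, and for 2 the order was the opposite, where the shares over all genes tested were 15% and 16.8%. The plot of fold changes by role gives all 50 genes.

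**Figure D1:**
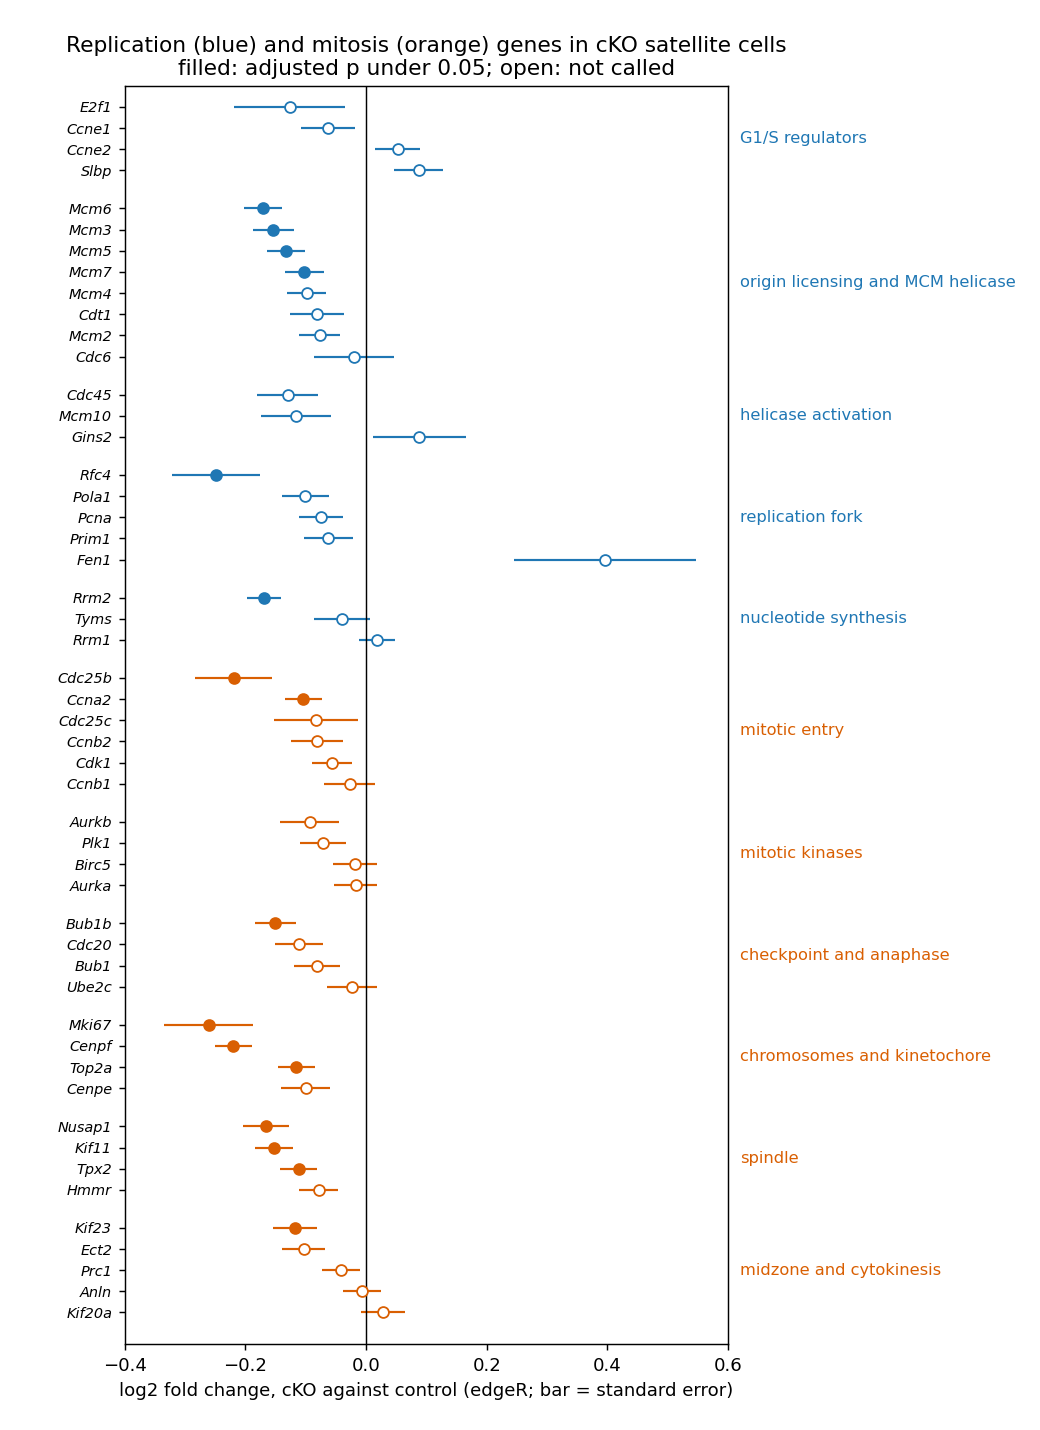
Log2 fold change of each gene, cKO against control, with its standard error (horizontal axis), for 23 S phase genes (blue) and 27 mitosis genes (orange) grouped by role. Filled points passed an adjusted p of 0.05; all 16 filled points lie left of 0, from Mki67 at -0.26 to Mcm7 at -0.10, and the only gene above 0.1 is Fen1 at 0.40, whose reads can come from overlapping genes.

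Among regulators of the G1/S transition, none of the 4 genes passed the test. Slbp, which encodes the protein that binds the stem-loop of histone mRNAs, was at 27.7, 28.1 and 28.5 CPM in control and at 30.6, 30.1 and 28.9 CPM in cKO. Every cKO sample was above the controls, but the difference did not pass (log2 0.087, SE 0.040, adjusted p = 0.177). The cyclin E genes had values on either side of 0: Ccne1 was at 24.9, 25.6 and 26.8 CPM in control and 25.4, 24.8 and 23.8 CPM in cKO (log2 -0.063, SE 0.045). Ccne2 was at 34.9, 34.1 and 35.2 CPM in control and at 35.2, 36.3 and 36.4 CPM in cKO (log2 0.052, SE 0.038). Control and cKO samples overlapped for both cyclins. E2f1, the founding member of the E2F family, ranged from 9.68 to 11.1 CPM in control and from 7.84 to 10.7 CPM in cKO, with its lowest value in cKO replicate 1.

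Origin licensing held most of the S phase genes that fell. Of 8 genes of this role, 4 fell (Mcm3, Mcm5, Mcm6 and Mcm7, all subunits of the MCM2-7 helicase), and all 8 had a fitted change below 0. Mcm6 was at 99.2, 101 and 104 CPM in control and at 89.9, 90.8 and 89.2 CPM in cKO. The highest cKO sample was thus well below the lowest control sample, and Mcm6 fell by 11.2% (log2 -0.17, SE 0.032, adjusted p = 0.00153). Mcm3 was at 76.2, 76.6 and 74.5 CPM in control and at 67.5, 70.2 and 66.6 CPM in cKO, again without overlap (log2 -0.15, SE 0.034, adjusted p = 0.00537). Mcm5 (log2 -0.13, adjusted p = 0.00883) and Mcm7 (log2 -0.10, adjusted p = 0.0447) also fell, and the call for Mcm7 held in 5 of 13 alternatives. The remaining helicase subunits did not pass, although their groups did not overlap either. Mcm4, the helicase gene with the highest level per kilobase of exon (28.4 CPM per kb), was at 99.7, 102 and 104 CPM in control and at 97.2, 95.8 and 92.7 CPM in cKO (log2 -0.098, SE 0.033, adjusted p = 0.0548), and Mcm2 had a log2 value of -0.077. For the helicase loaders Cdt1 and Cdc6 the samples overlapped, with log2 values of -0.081 and -0.020.

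None of the 3 genes of helicase activation passed. Cdc45, which encodes a subunit of the active helicase, was at 18.4, 20.2 and 19.1 CPM in control and at 17.4, 18.2 and 17.1 CPM in cKO, and the groups did not overlap (log2 -0.13, SE 0.051, adjusted p = 0.104). Mcm10, a factor that binds the helicase as it starts, overlapped between groups, with 21.6, 25.5 and 24.3 CPM in control and 23, 21.6 and 21.4 CPM in cKO (log2 -0.12, SE 0.058). Gins2, of the GINS complex, had a log2 value of 0.089, and 67.3% of its exon bases are overlapped by Gse1 on the opposite strand.

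At the replication fork, 1 of 5 genes fell. This was Rfc4, of the complex that loads PCNA on DNA, with 6.64, 7.41 and 7.30 CPM in control and 6.18, 6.06 and 5.75 CPM in cKO (log2 -0.25, SE 0.072, adjusted p = 0.0288). The lowest control and the highest cKO sample were close, and the call for Rfc4 held in 7 of 13 alternatives. Pcna, the sliding clamp, was at 68.7, 74.3 and 72.7 CPM in control and at 69.2, 68.8 and 67.0 CPM in cKO. Its groups overlapped and the difference did not pass (log2 -0.074, SE 0.037, adjusted p = 0.207), and 13.9% of its 75-base windows occur in other genes, mainly the pseudogene Pcna-ps2. Pola1 and Prim1, of the polymerase that starts new strands, had log2 values of -0.10 and -0.063, with no overlap between groups. Fen1, the nuclease that trims Okazaki fragments, went the other way, with 1.11, 1.07 and 1.04 CPM in control and 1.39, 1.26 and 1.57 CPM in cKO (log2 0.40, SE 0.15, adjusted p = 0.0973). It had the lowest level per kilobase of the 50 genes (0.44 CPM per kb), and 84.2% of its exon bases are overlapped by Gm10143 and Tmem258 on the opposite strand, so it is uncertain which gene its reads came from.

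In nucleotide synthesis, 1 of 3 genes fell, which was Rrm2, a subunit of ribonucleotide reductase, the enzyme that makes deoxynucleotides. Rrm2 was at 503, 506 and 502 CPM in control and at 445, 449 and 450 CPM in cKO. Both groups were tight, the gap between them was far wider than either, and Rrm2 fell by 11.1% (log2 -0.17, SE 0.028, adjusted p = 0.000543). Rrm2 (chr12:24708241-24714146) had the highest level per kilobase of the 50 genes, 182 CPM per kb in control, followed by Mki67 at 36.8 CPM per kb. Rrm1, the large subunit, overlapped between groups, at 311 to 316 CPM in control and 311 to 326 CPM in cKO (log2 0.018, SE 0.030). Tyms, thymidylate synthase, was at 23.8, 23.1 and 24.9 CPM in control and at 22.3, 24.1 and 23.4 CPM in cKO and also overlapped (log2 -0.040, SE 0.047). The difference between the Rrm2 and Rrm1 changes was not tested.

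In mitotic entry, 2 of 6 genes fell and all 6 had a fitted change below 0. Ccna2, cyclin A2, was at 132, 137 and 136 CPM in control and at 126, 126 and 125 CPM in cKO (log2 -0.10, SE 0.031, adjusted p = 0.0301), a call that held in 8 of 13 alternatives. Cdc25b, a phosphatase that activates CDK1, was at 63.6, 58.9 and 60.3 CPM in control and at 45.1, 56.7 and 54.9 CPM in cKO. The groups did not overlap, but cKO replicate 1 was far below the other cKO samples; the log2 fold change was -0.22 (SE 0.064, adjusted p = 0.0290), and -0.13 without that sample (adjusted p = 0.0314). The call for Cdc25b was lost without control replicate 1 or 3 (adjusted p = 0.107 and 0.0822) and with scaling by total counts alone (0.0583), and held in 10 of 13 alternatives. Cdk1, the kinase that drives entry into mitosis, was at 80.5, 82.3 and 83.3 CPM in control and at 77.4, 77.8 and 81.5 CPM in cKO. Its cKO replicate 3 lay among the controls, and the difference did not pass (log2 -0.056, SE 0.034, adjusted p = 0.312). The B cyclins Ccnb1 and Ccnb2 had log2 values of -0.027 and -0.082 and overlapping samples, as did Cdc25c at -0.083. For Ccnb1, 18.9% of the 75-base windows occur in other genes, mainly the pseudogene Ccnb1-ps.

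Of the mitotic kinases and their partners, none of the 4 genes passed. Plk1, which acts in spindle assembly and the return from mitosis, was at 34.7, 34.2 and 33.6 CPM in control and at 33.0, 32.9 and 31.7 CPM in cKO. The groups did not overlap, but the gap was small (log2 -0.071, SE 0.038, adjusted p = 0.254). Aurkb, the kinase of the chromosomal passenger complex, was at 24.7, 22.6 and 24.0 CPM in control and at 21.9, 23.3 and 21.5 CPM in cKO and overlapped (log2 -0.094, SE 0.049). Aurka, the centrosomal kinase, was at 51.4, 54.0 and 54.2 CPM in control and at 52.6, 52.2 and 52.8 CPM in cKO (log2 -0.017, SE 0.035), a value that was 0.0069 with scaling by total counts alone. Birc5, the passenger protein survivin, also overlapped (log2 -0.018).

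Of 4 genes of the spindle checkpoint and anaphase, 1 fell. Bub1b, the checkpoint protein BUBR1, was at 77.5, 74.6 and 75.6 CPM in control and at 66.5, 69.8 and 68.8 CPM in cKO (log2 -0.15, SE 0.034, adjusted p = 0.00632). No cKO sample reached the lowest control. Cdc20, which activates the ligase that starts anaphase, was at 48.2, 51.0 and 48.3 CPM in control and at 46.6, 43.8 and 46.3 CPM in cKO, without overlap and without passing (log2 -0.11, SE 0.039, adjusted p = 0.0727). Bub1 was likewise without overlap at -0.081, and Ube2c, the ubiquitin-conjugating enzyme of that ligase, overlapped at -0.023.

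Of 4 chromosome and kinetochore genes, 3 fell, and the role had a median log2 fold change of -0.17. For each of the 4, cKO replicate 1 was the lowest sample. Cenpf, a large protein of the outer kinetochore (chr1:189640606-189688086), was at 129, 127 and 124 CPM in control and at 108, 109 and 109 CPM in cKO. Its groups were far apart and the change had the lowest adjusted p of the 50 genes (log2 -0.22, SE 0.031, adjusted p = 0.000131). Mki67, which coats mitotic chromosomes and is the usual marker of proliferating cells (chr7:135689784-135716361), was at 387, 356 and 367 CPM in control and at 257, 342 and 326 CPM in cKO. The groups did not overlap, but cKO replicate 1 was much lower than the other cKO samples. Mki67 had the lowest fold change of the 50 genes, log2 -0.26 (SE 0.073, adjusted p = 0.0235), which was -0.15 without cKO replicate 1 (adjusted p = 0.00648) and which did not pass without control replicate 1 or 3 or in DESeq2 (adjusted p = 0.0825, 0.0740 and 0.180). Top2a, the topoisomerase that untangles sister chromatids, was at 311, 312 and 313 CPM in control and at 279, 294 and 290 CPM in cKO, with almost no spread among the controls (log2 -0.12, SE 0.030, adjusted p = 0.0160; called in 10 of 13 alternatives). Cenpe, a kinetochore motor, did not overlap between groups and did not pass (log2 -0.10, adjusted p = 0.120).

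Spindle genes also mostly fell, with 3 of 4 called and no overlap between groups for any of the 4. Kif11, the motor that pushes spindle poles apart, was at 90.5, 88.3 and 89.8 CPM in control and at 80.1, 82.3 and 79.2 CPM in cKO (log2 -0.15, SE 0.032, adjusted p = 0.00359). Nusap1, which bundles spindle microtubules, was at 33.5, 34.6 and 34.1 CPM in control and at 30.8, 29.8 and 30.6 CPM in cKO (log2 -0.17, SE 0.038, adjusted p = 0.00738). Tpx2, an activator of Aurora A, was at 122, 120 and 123 CPM in control and at 110, 114 and 114 CPM in cKO (log2 -0.11, SE 0.031, adjusted p = 0.0214), and this call held in 9 of 13 alternatives. In each of these genes the distance between the groups exceeded the range within them. Hmmr, a microtubule-binding protein, had a log2 value of -0.079 and did not pass.

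For the central spindle and cytokinesis, 1 of 5 genes fell. Kif23, the motor of centralspindlin, was at 57.7, 61.0 and 61.3 CPM in control and at 54.8, 56.1 and 54.9 CPM in cKO (log2 -0.12, SE 0.036, adjusted p = 0.0374), a call that held in 6 of 13 alternatives. Ect2, which centralspindlin recruits to start the furrow, was at 54.1, 53.9 and 53.7 CPM in control and at 51.8, 49.5 and 49.2 CPM in cKO, with no overlap (log2 -0.10, SE 0.035, adjusted p = 0.0607). Anln, a scaffold of the contractile ring, was nearly the same in both groups, with 136, 137 and 141 CPM in control and 141, 136 and 135 CPM in cKO (log2 -0.0070, SE 0.032), and this value was 0.017 with scaling by total counts alone. Prc1, which bundles midzone microtubules, had a log2 value of -0.041 without overlap. Kif20a, a midzone motor, was at 0.028 with overlapping samples, and 29.3% of its exon bases are overlapped by Cdc23 on the opposite strand.

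**Figure D2:**
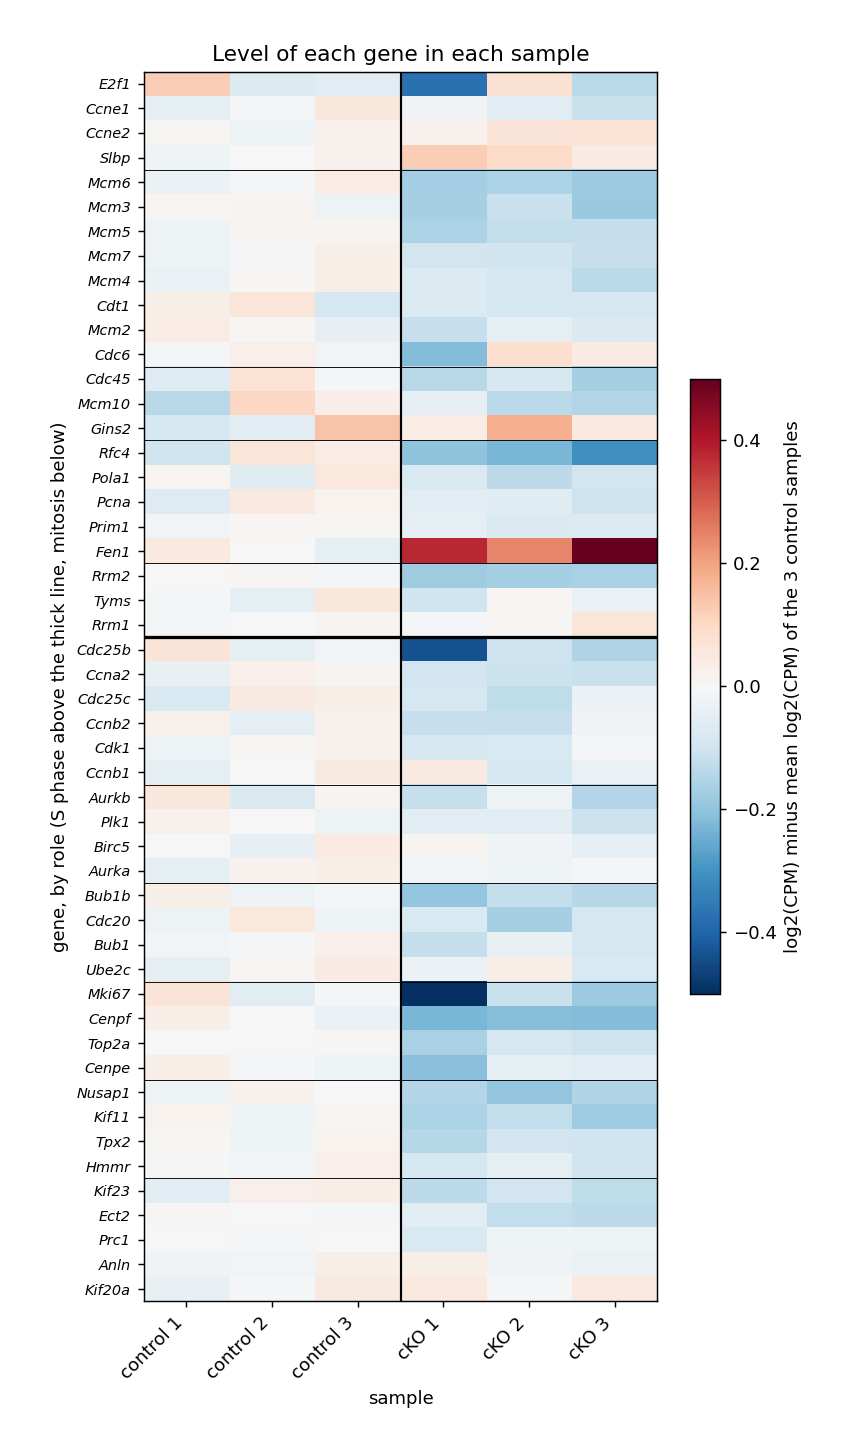
Level of each of the 50 genes in each of the 6 samples, as log2 CPM minus the mean log2 CPM of the 3 control samples (blue lower, red higher), with S phase genes above the thick line and mitosis genes below it. The cKO columns are mostly blue; the darkest cells are Mki67, Cdc25b and E2f1 in cKO replicate 1, and Fen1 is the only gene that is strongly red.

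The medians of S phase and mitosis genes in cKO lay close together. Called lower were 6 of 23 S phase genes (26.1%) and 10 of 27 mitosis genes (37.0%), and the median log2 fold changes were -0.081 and -0.094. The S phase median was 0.012 above the mitosis median, where the difference between class averages had an SD of up to 0.013 among replicates. The sign of this difference was not stable. It was -0.0031 without cKO replicate 1, and -0.016 with strict classes, which leave out the 4 G1/S regulators and Ccna2, Cdc25b and Top2a. The difference was -0.0048 without Fen1 and Gins2, which other genes overlap over most of their exon bases. Spread within a class was wider than the difference between them, since the middle 50% of S phase genes lay between -0.13 and -0.030 and that of mitosis genes between -0.12 and -0.049.

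Averages over the genes of a class were also taken in each sample. Relative to the control mean, the S phase genes averaged log2 -0.018, 0.0060 and 0.012 in the control samples and -0.076, -0.038 and -0.062 in cKO. The mitosis genes averaged -0.0045, -0.0065 and 0.011 in control and -0.12, -0.082 and -0.089 in cKO. For both classes the groups did not overlap, and cKO replicate 1 was the lowest and cKO replicate 2 the highest of the cKO samples. The S phase average minus the mitosis average was -0.014, 0.012 and 0.0013 in the control samples against 0.043, 0.044 and 0.027 in cKO. By this measure the S phase genes were lowered less than the mitosis genes in every cKO sample, with no overlap between groups. Without Fen1 and Gins2, a choice made after their values were seen, the cKO values were 0.016, 0.020 and -0.0067 and overlapped the control values of -0.014, 0.016 and -0.0021. Summed over the 27 mitosis genes, the level was 2349 to 2381 CPM in control and 2104 to 2230 CPM in cKO, and over the 23 S phase genes it was 1698 to 1721 CPM in control and 1593 to 1613 CPM in cKO.

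**Figure D3:**
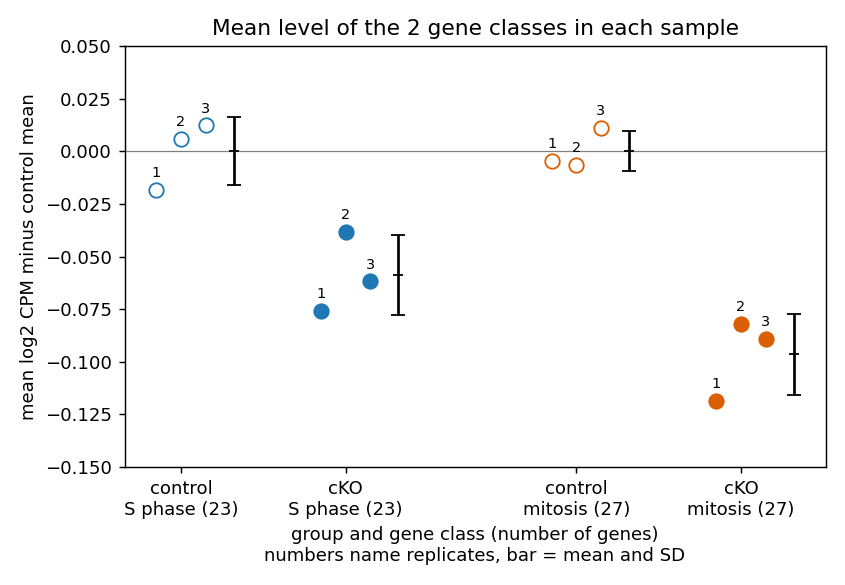
Mean log2 CPM minus the control mean over 23 S phase genes (blue) and 27 mitosis genes (orange) in each sample (points, open for control and filled for cKO, numbered by replicate), with the mean and SD of 3 samples beside them. Every cKO point is below every control point in both classes, from -0.038 to -0.12 against -0.018 to 0.012.

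Leaving out each sample in turn moved the number of calls more than the medians. Without cKO replicates 1, 2 and 3, the S phase genes called lower were 7, 7 and 4 and the mitosis genes 11, 11 and 8, where 7.33%, 6.59% and 4.93% of all genes tested were called lower. Without control replicates 1, 2 and 3, they were 6, 3 and 4 for S phase and 7, 6 and 4 for mitosis, where the shares of all genes were 4.02%, 4.09% and 4.21%. The lowest total, 8 of 50, came without control replicate 3, and 9 of 50 were called without control replicate 2. The medians stayed below 0 in all 6 fits, from -0.091 to -0.069 for S phase and from -0.10 to -0.082 for mitosis. Called lower in all 6 fits were 7 genes: Mcm3, Mcm6 and Rrm2 of S phase, and Bub1b, Cenpf, Kif11 and Nusap1 of mitosis. These 7 were also called under each of the other alternatives tried, which are other scalings, DESeq2, no filter and a replicate block. The matching shares of all genes tested, called lower in every fit, were not counted. Cenpf ranged from -0.24 to -0.21 and Rrm2 stayed at -0.17 in the 6 fits, whereas Mki67 ranged from -0.35 to -0.15 and Cdc25b from -0.29 to -0.13. The lowest of the 6 samples was cKO replicate 1 for 18 genes, of which 12 were mitosis genes, cKO replicate 3 for 18, and cKO replicate 2 for 6.

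**Figure D4:**
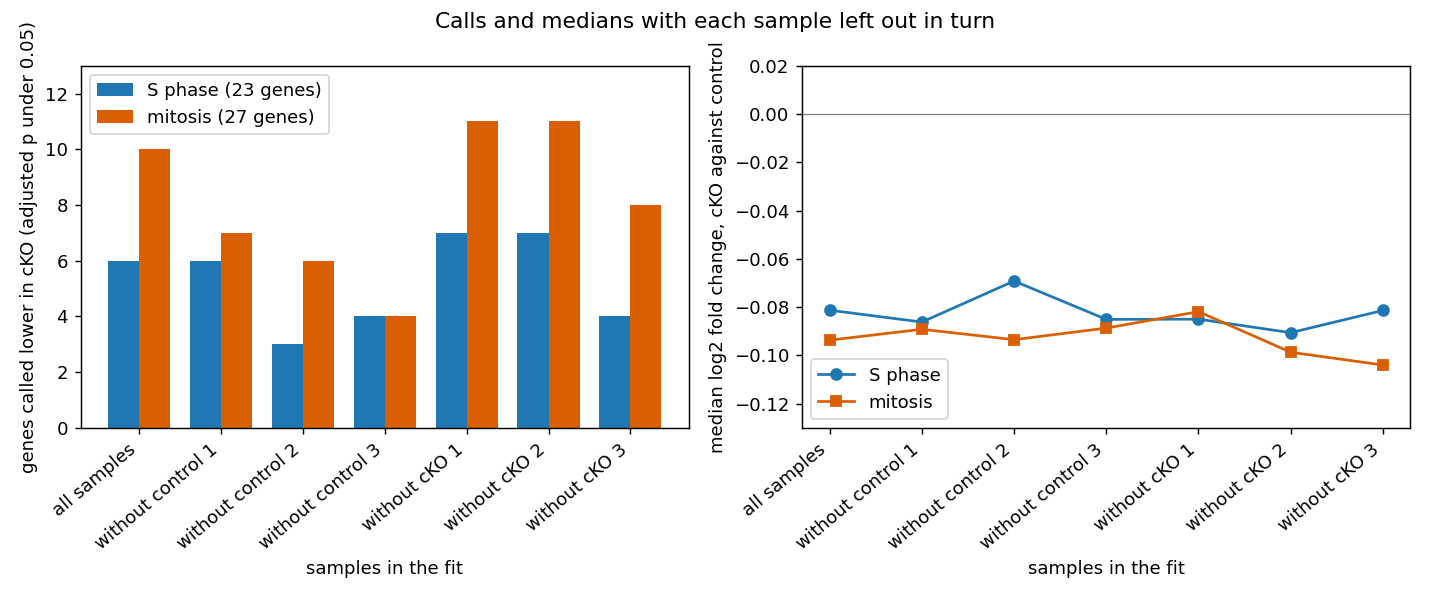
Left, number of S phase (blue, of 23) and mitosis genes (orange, of 27) called lower in cKO with all samples and with each sample left out; right, the median log2 fold change of each class in the same fits. Counts range from 3 to 7 and from 4 to 11, and both medians stay between -0.069 and -0.10.

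The other genes of these processes were called lower in 10% (S phase) and 24% (mitosis) of cases, beside 6.46% of all genes tested and 10.6% of those with a control mean of at least 5 CPM. The share of the other S phase genes was thus near that of all genes. Of these 40 genes, 4 fell and 0 rose (1 higher at an unadjusted p of 0.05 in edgeR, 0 in DESeq2), their median log2 fold change was -0.046, and 29 were below 0. Orc1, of the origin recognition complex, was called higher with scaling by total counts alone (log2 0.24, adjusted p = 0.0476). E2f8, a repressor of the E2F family, had 102 ± 1.83 CPM (SD, n = 3) in control and 85.7 ± 3.92 in cKO, and the change passed in edgeR (log2 -0.26, adjusted p = 0.000157). E2f2 fell from 22.4 ± 0.734 to 19.1 ± 0.788 CPM, and Lig1, which joins Okazaki fragments, from 30.5 ± 1.76 to 26.3 ± 0.949 CPM (log2 -0.23 and -0.22). Of 50 other mitosis genes, 12 fell and 0 rose (1 higher at an unadjusted p of 0.05 in edgeR, 0 in DESeq2), with a median of -0.065 and 42 below 0. Foxm1, a transcription factor of mitotic genes, was called higher without cKO replicate 1 (log2 0.15, adjusted p = 0.0162) and did not pass with all samples (log2 0.11, adjusted p = 0.126). Orc1 and Foxm1 were named after their values were seen. Aspm, a protein of the spindle poles, had 72.0 ± 0.650 CPM (SD, n = 3) in control and 61.7 ± 2.35 in cKO, which passed in edgeR (log2 -0.22, adjusted p = 0.000427). The kinetochore genes Knl1 (log2 -0.23) and Spc24 (log2 -0.20) also fell. The 3 S phase and 3 mitosis genes named here were called in every fit with a sample left out, but the number of other mitosis genes called ranged from 5 to 13 in these fits.

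Fold changes were also set beside the promoter letters. The 8 genes with an E2F octamer had a median log2 fold change of -0.10, the 19 genes with a CHR -0.082, and the 16 genes with neither -0.078, with Cdk1 counted in both of the first groups. Among the S phase genes with a window, an octamer was found for 4 of the 6 called lower (Mcm3, Mcm5, Mcm6 and Mcm7) and for 3 of the 14 not called (Cdc6, Cdt1 and Pola1). Among the mitosis genes, the CHR was found for 6 of 8 called lower and for 10 of 14 not called. These counts were not tested, and the genes of the MCM2-7 complex make up all of the E2F matches among the called genes.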

How the data were processed

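RNA was measured in 3 control and 3 cKO samples, mapped to groups by their titles. Libraries were stranded, made from 400 ng of RNA after ribosomal RNA removal and read as single ends of 75 bases. The authors aligned reads to mm10 with Bowtie2 2.3.4.2, which does not split reads over exon junctions, and deposited raw counts per gene made with featureCounts 1.6.3; its strand setting is not given in the sources used here. They also deposited a signal, the counts divided by size factors, which served only to check the counts. Their comparison table (a log2 fold change, a score, a p-value and an adjusted p-value from DESeq2 2.11.40.6) was not used. All 55536 identifiers matched GENCODE M21.

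Counts were tested in R 4.3.3 with edgeR 4.0.16 (filterByExpr with a minimum count of 10, TMM, quasi-likelihood, genotype as the only term), with Benjamini-Hochberg adjustment over 22404 genes and a threshold of 0.05. SE is the log2 fold change divided by the root of F. Scripts were tested on simulated data with 200 changed genes. Totals of 47944477 to 63323577 counts and a biological coefficient of variation of 3.92% set the precision, and counting error adds to it for low genes such as Fen1. Alternatives were DESeq2 1.42.0, other scalings, no filter, a replicate block and each sample left out.

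The members, lists and roles were chosen with earlier results of these data known. Values per sample are given for the 2 genes of lowest p and the gene of highest CPM per kilobase in each of 11 roles, and for Mki67, Top2a, Cdk1 and Pcna. Other named genes are the 3 of lowest p among those called in each list of other cycle genes.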

Additional observations from a re-analysis of the deposited data

How the results depend on the processing

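Of the 50 genes, 0 were called higher under each of the 13 alternatives; of the other cycle genes, Orc1 was called higher with total counts alone and Foxm1 without cKO replicate 1. DESeq2, RLE, upper quartile and protein-coding TMM scaling and no filter gave 12 to 18 of the 50 genes called lower, against 16. Over all genes, DESeq2 called 1244 of 39816 lower and no filter 1796 of 39816. The RLE, upper quartile and protein-coding TMM scalings called 1435 to 1584 of 22404 lower, against 1448 of 22404 in the main test. Scaling by total counts alone called 9 of the 50 lower (5 of 27 mitosis genes) and 6 of 50 other mitosis genes, with medians of -0.0569 for S phase and -0.069 for mitosis, and 20 genes without overlap between groups in place of 28. With this scaling 1057 genes were called lower and 2462 higher over all genes, against 1448 and 2101. With a sample left out, calls ranged from 8 to 18 of 50 (3 to 7 S phase, 4 to 11 mitosis), from 3 to 6 of the other S phase genes and from 5 to 13 of the other mitosis genes. The S phase minus mitosis median ranged from -0.00311 to 0.0244 in these fits. It was reversed without cKO replicate 1 (-0.00311), with strict classes (-0.0164) and without Fen1 and Gins2 (-0.00479). The last alternative was chosen after seeing the data, as was the recount of genes with every cKO sample below every control sample. The value of Hira ranged from -0.524 to -0.286, and was -0.344 (adjusted p = 0.104) without control replicate 1. The cause of these shifts was not tested.

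Replicate numbers were not used as pairs in the main test. Deviations of same-numbered control and cKO samples from their group means correlated at -0.0145 to -0.0045 over genes. The highest value of any control and cKO pair was 0.0204. These correlations cannot show whether same-numbered samples were handled together. With a replicate block, 12 of the 50 genes were called lower (4 S phase, 8 mitosis) with 0 higher, and over all genes 1251 lower and 1901 higher.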
